A study of Homo sapiens with 12 samples.

Results

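The transcripts of 10 mRNA export factors were followed in HEK293T cells with (HEK WT) and without (HEK UL1 KO) an intact HNRNPUL1 gene. The factors are the export receptor NXF1 with its partner NXT1, and 8 genes of the transcription-export (TREX) complex and its associated proteins: ALYREF, DDX39B, DDX39A, THOC1, THOC2, THOC5, THOC6 and ZC3H11A. They were taken by symbol for their known role from 61163 genes listed, and all 10 symbols were present in the tables of both fractions. hnRNP UL1, the protein removed in the knockout line, is also known as E1B-AP5 and binds NXF1.

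HEK293T is an established line of human embryonic kidney cells. HEK WT is the wild-type line, and HEK UL1 KO is the same line after the HNRNPUL1 gene had been disrupted with CRISPR-Cas9; the number of clones behind it is not given in the sources used here. Cells of both genotypes were grown in the same serum-supplemented medium, without a further treatment, and were separated into a nucleolar (NO) and a cytoplasmic-nuclear (CN) fraction, from which total RNA was sequenced without removal of rRNA (12 libraries, 3 for each genotype in each fraction). The series describes the replicates as biological triplicates, but the sample labels do not tie them to separate cultures, so p values measure the spread between these libraries, part of which may be technical.

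A messenger RNA leaves the nucleus bound to the heterodimer of NXF1 and NXT1, which passes through the nuclear pore. The receptor is loaded by TREX, in which the THO subunits form a scaffold that holds the RNA helicase DDX39B (UAP56), and the helicase in turn deposits adaptors such as ALYREF on spliced RNA. DDX39A is a close paralog of DDX39B, and ZC3H11A is a zinc finger protein that associates with TREX.

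Total counts per library were 37141666 to 83019079 in NO and 54349399 to 104040073 in CN, and rRNA genes took 55.3 to 65.1% of the counts in NO and 73.9 to 78.7% in CN. The 10 export factors together had 3319 to 8962 counts per NO library and 5926 to 11437 per CN library. HEK WT NO replicate 3 stood apart from its group in composition, with a TMM factor (the scaling factor that edgeR derives from the bulk of the genes) of 1.40 against 0.69 and 0.622 in the other HEK WT NO libraries. The HEK UL1 KO NO libraries had factors of 1.34, 1.09 and 1.15, so replicates 1 and 2 of HEK WT NO were the lowest of the 6. HEK WT CN replicate 3 had a factor of 0.76, and the other 5 CN libraries lay between 1.01 and 1.09. The U3 snoRNA SNORD3A, a nucleolar RNA, was counted at 5380 to 13700 CPM of total counts in NO and at 233 to 338 in CN, where CPM are counts scaled to the size of the library. SNORD13 (40.5 to 108 CPM in NO, 0.994 to 2.2 in CN) and RMRP (43.8 to 194 and 17.7 to 27.7) were also higher in NO. RPPH1, the RNA of RNase P, was lower in NO (6.62 to 14.8 CPM) than in CN (34.8 to 53.5 CPM). The cytoplasmic mRNA of GAPDH was at 30.2 to 34.5 CPM in NO and 36.9 to 41 in CN of HEK WT. In HEK UL1 KO it was at 41.9 to 55 and 53.9 to 63.1, which overlap. Of the other cytoplasmic RNAs, ACTB and EEF1A1 were lower in NO within each genotype without overlap, and RN7SL1 was higher.

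HNRNPUL1 itself was lower in every HEK UL1 KO library. Its level was 15.3, 21.6 and 9.29 CPM scaled by TMM (the scale used from here on unless stated otherwise) in HEK WT NO and 4.09, 3.86 and 3.57 CPM in HEK UL1 KO NO (adjusted p = 0.00649, edgeR's quasi-likelihood test with Benjamini-Hochberg adjustment). In CN it was 17.8, 15.4 and 17.99 CPM in HEK WT and 4.75, 4.80 and 4.86 CPM in HEK UL1 KO (adjusted p = 2.12e-07, same test). The transcript was reduced but still counted.

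Within TREX, the helicases and the THO subunits differ in how well their reads can be assigned, which sets what each count can show. DDX39A and DDX39B encode nearly the same protein, and the stretch of 75 bases (1 read length) in which their transcripts are most alike lies in the coding sequence of both. The paired lines show this stretch, with the bases that differ in capitals.
DDX39A: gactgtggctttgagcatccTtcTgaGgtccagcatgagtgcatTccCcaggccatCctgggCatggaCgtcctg
DDX39B: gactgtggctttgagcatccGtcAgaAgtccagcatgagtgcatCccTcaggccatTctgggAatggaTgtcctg
It covers bases 257 to 331 of the DDX39A transcript and 370 to 444 of the DDX39B transcript (GENCODE release 44), and 8 bases differ. Of 1424 windows of the DDX39A transcript, 0 matched DDX39B with 3 or fewer mismatches, so the counts of the paralogs are separate measurements.

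DDX39B, by contrast, was counted several times over. The tables list 7 further rows with its symbol and a numeric suffix, and these had 74.8 to 84.8% (DDX39B_1) up to 99.4 to 100% (DDX39B_7) of the count of DDX39B. The readthrough gene ATP6V1G2-DDX39B had 100 to 102%. ZC3H11A shares 98.8% of its windows of read length exactly with ZBED6, a gene that lies inside it, and 17.2% with its retrocopy ZC3H11B. These rows had 11.8 to 17.3% and 14.2 to 17.7% of its count. With 3 or fewer mismatches allowed, 67.2% of the windows of ZC3H11A (3927 of 5843) matched ZC3H11B. ZC3H11A also shared exact windows with ZC3H11C, whose counts are not given here. NXF1, NXT1, ALYREF, DDX39A, THOC1, THOC2, THOC5 and THOC6 had 0 windows in common with another annotated gene, counting exact matches only. Part of THOC6 (14% of its exonic bases) overlaps HCFC1R1 on the opposite strand, and 5.94% of the exonic bases of THOC2 overlap the processed pseudogene FERP1 on the opposite strand. Since the strand setting of the counting is not given in the sources used here, reads in those parts may belong to either gene.

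Ranked per kilobase of annotated exon, THOC2 had the highest level among the 10 in HEK WT CN, at 5.98 ± 0.0673 CPM per kb (SD, n = 3), followed by DDX39B at 2.96 ± 0.163. ZC3H11A (2.23 ± 0.129) and ALYREF (2.04 ± 0.323) came next and overlapped each other. THOC1 followed at 1.07 ± 0.0107, clear of its neighbours. THOC5 (0.931 ± 0.0903), DDX39A (0.74 ± 0.134), NXF1 (0.616 ± 0.115) and NXT1 (0.548 ± 0.0520) formed a run in which each overlapped the next. THOC6 was lowest at 0.196 ± 0.00742 CPM per kb and rested on 28 to 32 counts per HEK WT CN library. On this scale the subunits of one complex differed in mRNA level, and in HEK UL1 KO CN the range of THOC2 (3.03 to 3.29 CPM per kb) overlapped that of DDX39B (2.95 to 3.34). The scale assumes that reads were counted over exons only. Its length is that of the exons of all annotated transcripts merged, 10277 bases for THOC2 and 7007 for DDX39B. The single canonical transcripts are shorter by unlike shares, with 5526 windows of read length in THOC2 and 1607 in DDX39B. The order, including which of these 2 is highest, therefore depends on the length chosen, and a ranking by single transcripts was not run.

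**Figure D1:**
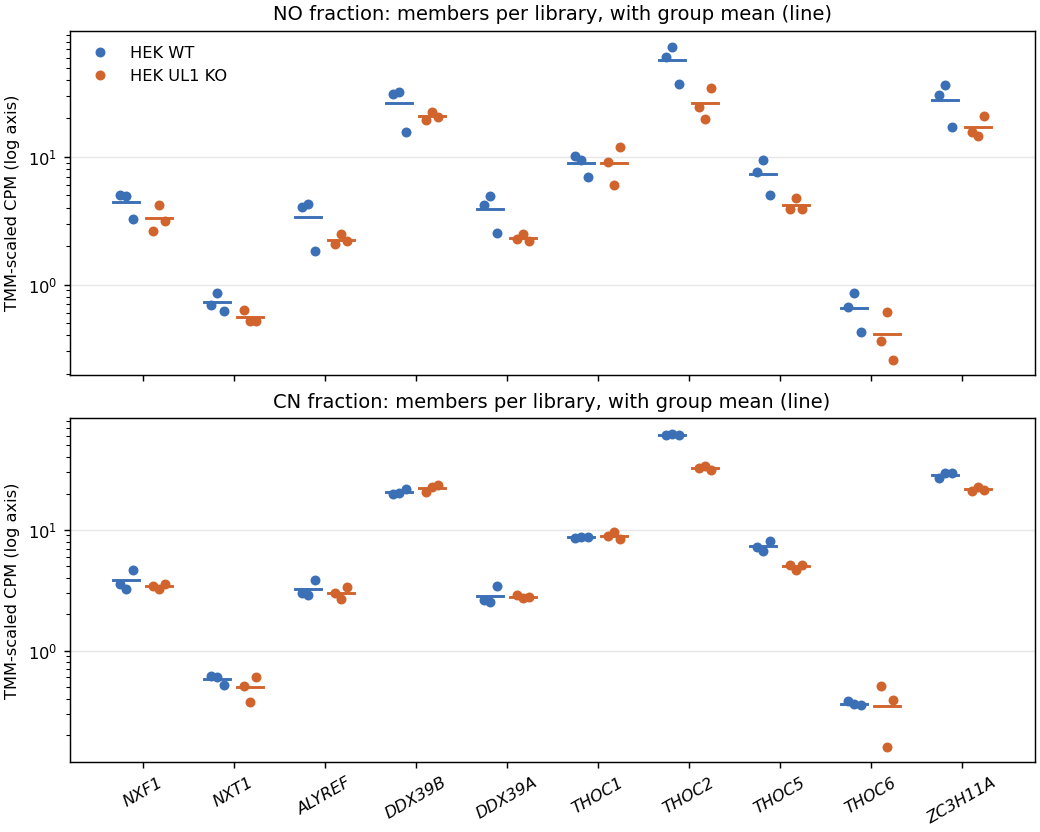
Levels of the 10 export factors in each library, in CPM scaled by TMM on a log axis, with NO in the upper panel and CN in the lower, HEK WT in blue and HEK UL1 KO in orange; lines are group means. In CN the points of THOC2, THOC5 and ZC3H11A separate by genotype, and in NO the third HEK WT library lies below the other HEK WT libraries for every factor.

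The question of whether loss of hnRNP UL1 went with a change in the mRNAs of its export partners was addressed first in CN. There, THOC2, THOC5 and ZC3H11A were lower in HEK UL1 KO, and none of the 10 was higher. THOC2 stood at about 0.53 of its HEK WT level. The receptor NXF1 with NXT1, the helicases, ALYREF, THOC1 and THOC6 did not pass the test. Among all 27234 genes tested in CN, 37.9% passed and 22.3% were lower, so 3 lower genes of 10 is a count near the background; the median log2 fold change was -0.13 over the 10 factors and 0.04 over all genes.

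THOC2, the largest THO subunit and the scaffold to which the others attach, had 5163, 5201 and 4812 raw counts in the HEK WT CN libraries and 2372, 2534 and 1845 in the HEK UL1 KO CN libraries. Scaled, these were 61.3, 62.2 and 60.9 CPM against 32.4, 33.8 and 31.2 CPM. Every knockout library lay far below every wild-type library, and the spread within each genotype was small. THOC2, THOC5 and ZC3H11A were the 3 factors whose CPM in CN did not overlap between the genotypes, where 28.1% of all genes were lower without overlap. The log2 fold change was -0.92 (standard error 0.0705, adjusted p = 6.68e-06, edgeR's quasi-likelihood test), a ratio of 0.528.

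THOC5, a THO subunit that binds NXF1, had 7.21, 6.69 and 8.10 CPM in HEK WT CN and 5.12, 4.69 and 5.13 CPM in HEK UL1 KO CN. The genotypes did not overlap. The log2 fold change was -0.56 (standard error 0.0932, adjusted p = 9.52e-04, edgeR), a ratio of 0.679.

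ZC3H11A had 26.7, 29.3 and 29.7 CPM in HEK WT CN and 21.0, 22.7 and 21.3 CPM in HEK UL1 KO CN. Again the lowest HEK WT library lay above the highest HEK UL1 KO library. The log2 fold change was -0.40 (standard error 0.074, adjusted p = 0.0018, edgeR). The rows of ZBED6 and ZC3H11B, which share its sequence, were lower as well. Their log2 fold changes were -0.49 for ZBED6 (adjusted p = 0.00422, edgeR) and -0.29 for ZC3H11B (adjusted p = 0.0340, edgeR). They may hold reads of ZC3H11A, so they are not taken as independent measurements.

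THOC1, which contacts THOC2 directly in the complex, had 8.55, 8.69 and 8.72 CPM in HEK WT CN and 8.89, 9.58 and 8.36 CPM in HEK UL1 KO CN. The libraries overlapped, and the log2 fold change was 0.05 with a 95% interval from -0.10 to 0.20. THOC6, a WD-repeat subunit of THO, was too thinly counted for a statement, with 28 to 32 counts in HEK WT CN and 37, 12 and 23 counts in HEK UL1 KO CN (interval from -0.79 to 0.66).

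The export receptor did not pass in CN. NXF1 had 3.58, 3.25 and 4.62 CPM in HEK WT and 3.46, 3.27 and 3.60 CPM in HEK UL1 KO (log2 fold change -0.15, interval from -0.41 to 0.11, adjusted p = 0.395, edgeR). NXT1, which stabilises NXF1 and helps it dock at the pore, had 0.618, 0.610 and 0.519 CPM against 0.506, 0.373 and 0.608 CPM (log2 fold change -0.24, interval from -0.72 to 0.23). Both genes overlapped between the genotypes.

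The helicases and their adaptor did not pass either. DDX39B had 19.8, 20.3 and 22.0 CPM in HEK WT CN and 20.6, 22.7 and 23.4 CPM in HEK UL1 KO CN, with a log2 fold change of 0.10 (interval from -0.05 to 0.25), and its 7 suffixed rows gave 0.10 to 0.16. DDX39A had 2.60, 2.51 and 3.45 CPM against 2.89, 2.72 and 2.79 CPM, a log2 fold change of -0.03 (interval from -0.29 to 0.24). ALYREF, the adaptor that hands the RNA to NXF1, had 3.02, 2.87 and 3.82 CPM against 2.98, 2.69 and 3.36 CPM, a log2 fold change of -0.11 (interval from -0.37 to 0.16). In all 3 the ranges of the genotypes overlapped.

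The size of these differences depended on the scaling. With total counts in place of TMM, THOC2 alone passed (-0.72, adjusted p = 0.00663), THOC5 was at -0.34 (adjusted p = 0.111) and ZC3H11A at -0.19 (adjusted p = 0.363), and the median of all genes moved from 0.04 to 0.24 and the calls among all genes from 4253 higher and 6070 lower to 3697 higher and 1724 lower. With GAPDH as the only reference, 5 factors were lower (NXF1 at -0.48 and ALYREF at -0.45 in addition), the median of all genes was -0.31 and the split was 1092 higher and 9068 lower. GAPDH itself differed by genotype, at 36.9 to 41 CPM of total counts in HEK WT CN and 53.9 to 63.1 in HEK UL1 KO CN. A change of scaling moves the log2 fold changes of all genes together. Relative to the median of all genes, THOC2 was at -0.96, THOC5 at -0.60 and ZC3H11A at -0.44 with TMM. With all 12 libraries in 1 fit, ZC3H11A lost its call (-0.48, adjusted p = 0.188). The markers of the line moved with genotype too, and not in one direction. VIM was at 28.4 to 30.4 CPM of total counts in HEK WT CN and at 11.3 to 13.1 in HEK UL1 KO CN. KRT8 (0.356 to 0.611 against 2.59 to 3.07), KRT18 (0.711 to 0.753 against 1.65 to 2.56), LHX1 (0.115 to 0.25 against 0.736 to 0.83) and PAX2 (0.423 to 0.998 against 1.46 to 1.47) were higher in HEK UL1 KO CN, and NEFM overlapped. The 6 line markers, of which VIM is the most abundant, summed to 33.0 to 38.5 and 22.6 to 23.5. All 5 markers of other cell types were counted, and together they summed to 0.269 to 0.998 in HEK WT CN and 1.24 to 1.56 in HEK UL1 KO CN, with ALB at 0 to 0.092 in all CN libraries. In NO they summed to 2.13 to 7.31 in HEK WT and 6.57 to 6.87 in HEK UL1 KO. PECAM1 alone was at 0.923 to 3.24 in HEK WT NO and 2.69 to 3.81 in HEK UL1 KO NO, where NXF1 had means of 3.71 and 3.92 on this scale. The part of these markers in the results was not tested. In bulk RNA, fewer cells of a state and less RNA per cell cannot be told apart.

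**Figure D2:**
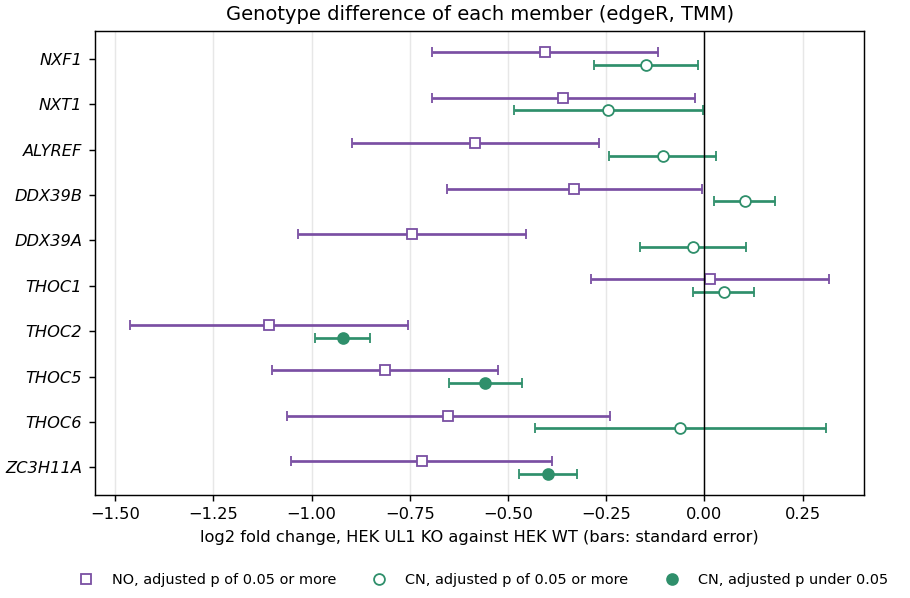
Log2 fold change of HEK UL1 KO against HEK WT for each export factor, in NO (squares) and CN (circles), with standard errors as bars; filled symbols have an adjusted p under 0.05 by edgeR's quasi-likelihood test. THOC2, THOC5 and ZC3H11A are filled in CN, no symbol is filled in NO, and the NO bars are the wider.

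In NO, 0 of the 10 passed at an adjusted p under 0.05 (edgeR), in a comparison in which 0.939% of 34836 genes passed. At an unadjusted p under 0.05 there were 4 (DDX39A, THOC2, THOC5 and ZC3H11A) beside 16% of all genes, and DESeq2 called 1, THOC2 (log2 fold change -1.16, adjusted p = 0.0207), beside 4.39% of the genes it tested. The log2 fold changes were below 0 for 9 of the 10 with TMM, with a median of -0.62 against 0.004 over all genes. With SNORD3A as the reference 8 of these 9 were above 0, THOC2 being the exception, and the median of all genes rose to 0.83. SNORD3A itself was at 7190 to 13700 CPM of total counts in HEK WT NO and 5380 to 8290 in HEK UL1 KO NO, so it is not a fixed reference. With total counts NXF1, NXT1 and DDX39B were above 0, and the median of all genes rose to 0.40. The calls among all genes split into 127 higher and 200 lower with TMM, 7 and 3 with total counts, and 11246 and 89 with SNORD3A.

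THOC2 in NO was at 60.7, 72.7 and 37.3 CPM in HEK WT and at 24.8, 19.8 and 34.6 CPM in HEK UL1 KO. Its genotypes did not overlap, by a margin of less than the spread within either. The log2 fold change was -1.11 (interval from -1.80 to -0.41, adjusted p = 0.142, edgeR).

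THOC5 was at 7.57, 9.50 and 5.06 CPM in HEK WT NO and at 3.88, 4.80 and 3.89 CPM in HEK UL1 KO NO (log2 fold change -0.81, interval from -1.38 to -0.25, adjusted p = 0.18). DDX39A was at 4.24, 4.95 and 2.55 CPM against 2.27, 2.495 and 2.21 CPM (log2 fold change -0.75, interval from -1.31 to -0.18, adjusted p = 0.22). THOC2, THOC5 and DDX39A were the 3 factors whose CPM in NO were lower in HEK UL1 KO without overlap, where 9.17% of all genes were so. In each of them the third HEK WT library was the one nearest to the knockout.

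ZC3H11A was at 30.3, 36.6 and 17.1 CPM in HEK WT NO and at 15.7, 14.5 and 20.8 CPM in HEK UL1 KO NO, so that its genotypes overlapped (log2 fold change -0.72, adjusted p = 0.297). ALYREF was at 4.06, 4.27 and 1.84 CPM against 2.09, 2.47 and 2.18 CPM, and here the third HEK WT library lay below every HEK UL1 KO library (log2 fold change -0.58, adjusted p = 0.369). THOC1 was at 10.2, 9.53 and 6.90 CPM against 9.05, 6.03 and 11.9 CPM, without an order of the genotypes (log2 fold change 0.01, interval from -0.58 to 0.61).

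NXF1 was at 5.03, 4.98 and 3.27 CPM in HEK WT NO and at 2.64, 4.24 and 3.17 CPM in HEK UL1 KO NO. Its log2 fold change of -0.41 had an interval from -0.97 to 0.16. DDX39B was at 31.1, 32.1 and 15.8 CPM against 19.5, 22.7 and 20.6 CPM (log2 fold change -0.33, interval from -0.97 to 0.30). NXT1 (22 to 70 counts per NO library, log2 fold change -0.36) and THOC6 (11 to 40 counts, -0.65) overlapped between the genotypes as well. Without HEK WT NO replicate 3, 5 factors were lower at an adjusted p under 0.05 (ALYREF, DDX39A, THOC2, THOC5 and ZC3H11A; log2 fold changes from -1.35 to -0.91), together with 25.1% of all genes, of which 5546 were lower and 3587 higher.

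The interaction of genotype and fraction, which tests whether the knockout effect itself differed between NO and CN, was below the threshold for 0 of the 10 factors in the fit of all 12 libraries (adjusted p = 1 for each, edgeR; 0 at an unadjusted p under 0.05, 0 by DESeq2; 0.114% of all genes passed). For THOC2 the estimate was -0.02, with an interval from -0.71 to 0.67. The intervals of the other factors spanned 0 too, among them DDX39A (-1.16 to 0.05) and THOC1 (-0.50 to 0.76), and their width leaves differences of moderate size undetectable here.

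Since scaling moved the NO values, the factors were also compared with each other inside a library, by dividing raw counts by those of THOC1, the best-counted THO subunit with a log2 fold change near 0 in both fractions. This reference was picked after the values had been seen, so the ratios restate the differences above on a scale within the library and are given without a test. A library's scaling factor cancels in such a ratio, while a difference in THOC1 does not.

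For each THOC1 count there were 7.17, 7.16 and 6.98 THOC2 counts in HEK WT CN and 3.65, 3.52 and 3.73 in HEK UL1 KO CN. In NO the ratios were 5.92, 7.62 and 5.40 in HEK WT and 2.74, 3.28 and 2.92 in HEK UL1 KO. The mean ratio in HEK UL1 KO was thus 51.1% of that in HEK WT in CN and 47.2% in NO, without overlap in either fraction, and the third HEK WT NO library, which stood apart after scaling, lay with the other HEK WT libraries. Over all genes tested, 29.5% in CN and 10.4% in NO had a ratio to THOC1 that was lower in HEK UL1 KO without overlap.

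The ratio of ZC3H11A to THOC1 was also lower without overlap in both fractions. It was 3.12, 3.38 and 3.41 in HEK WT CN and 2.36, 2.37 and 2.55 in HEK UL1 KO CN (73.5%), and 2.96, 3.84 and 2.48 in HEK WT NO and 1.74, 2.41 and 1.75 in HEK UL1 KO NO (63.6%). THOC5 to THOC1 was lower without overlap in CN (0.843, 0.770 and 0.929 against 0.575, 0.490 and 0.614; 66.1%), but in NO the ranges overlapped (0.739, 0.997 and 0.733 against 0.429, 0.797 and 0.329). The ratios of NXF1, NXT1, ALYREF, DDX39B, DDX39A and THOC6 to THOC1 overlapped between the genotypes in both fractions.

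**Figure D3:**
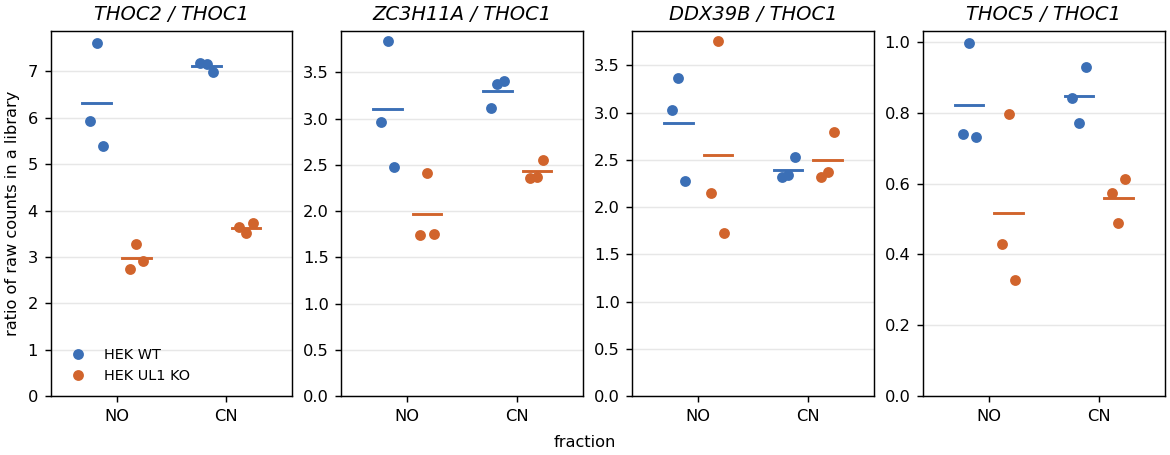
Raw counts of THOC2, ZC3H11A, DDX39B and THOC5 divided by the raw counts of THOC1 in the same library, by fraction, with HEK WT in blue, HEK UL1 KO in orange and group means as lines. The THOC2 ratio is 5.40 to 7.62 in the HEK WT libraries and 2.74 to 3.73 in the HEK UL1 KO libraries, while the DDX39B ratios overlap.

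The promoters of THOC2 and THOC1 are shown because these subunits of one scaffold differed in mRNA by genotype in one case and not in the other. Each runs from 250 bases before to 50 bases after the start of the gene (RefSeq, GRCh38.p14). THOC2 lies on the minus strand at chrX:123733003-123733302, and THOC1 on the minus strand at chr18:267998-268297. Capitals mark matches to the GC box GGGCGG on either strand and, in THOC1, to the cyclic AMP response element TGACGTCA.
THOC2: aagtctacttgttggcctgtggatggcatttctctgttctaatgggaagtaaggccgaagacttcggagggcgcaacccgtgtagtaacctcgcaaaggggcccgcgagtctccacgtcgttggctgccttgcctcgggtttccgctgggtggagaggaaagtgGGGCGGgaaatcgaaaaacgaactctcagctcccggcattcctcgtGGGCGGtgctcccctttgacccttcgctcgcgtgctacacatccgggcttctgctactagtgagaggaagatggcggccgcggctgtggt
THOC1: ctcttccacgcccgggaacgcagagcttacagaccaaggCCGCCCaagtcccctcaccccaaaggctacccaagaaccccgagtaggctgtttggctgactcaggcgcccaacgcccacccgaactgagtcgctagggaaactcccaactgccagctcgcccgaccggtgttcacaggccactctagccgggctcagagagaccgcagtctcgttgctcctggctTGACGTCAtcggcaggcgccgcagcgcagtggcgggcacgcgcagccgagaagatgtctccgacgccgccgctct
Both are rich in G and C (59.3% in THOC2 and 65.7% in THOC1). The GC box was in 7 of the 10 promoters (NXF1, NXT1, ALYREF, THOC1, THOC2, THOC5 and THOC6) and in 44.6% of all 27305 RefSeq promoters of this length. The ETS motif CCGGAAG was in 4 of 10 (ALYREF, DDX39B, NXT1 and THOC5) and in 10.7% of all, the CCAAT box (CCAAT) in 4 of 10 and 35.7%, and TATAAA in 3 of 10 and 12%. THOC1 alone of the 10 held TGACGTCA (1.98% of all promoters) and ZC3H11A alone the E-box CACGTG (7.43%). Matches were searched on both strands and describe the letters of these windows.

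NO was compared with CN to see where the transcripts were counted. In HEK WT, THOC1, THOC2, THOC5 and ZC3H11A were lower in NO (log2 fold changes of -0.44, -0.61, -0.49 and -0.53, adjusted p from 0.0241 to 0.0488, edgeR), in a comparison in which 52.8% of 29340 genes passed and 20.9% were lower. NXF1 (-0.27), NXT1 (-0.15), ALYREF (-0.45), DDX39B (-0.16), DDX39A (-0.05) and THOC6 (0.33) did not pass. The 4 calls were all lost with total counts, with TMM computed without rRNA genes and without any one of the HEK WT CN libraries. They were also lost with the replicate number as a block (adjusted p from 0.0619 to 0.116, edgeR). Those of THOC5 and ZC3H11A were lost without HEK WT NO replicate 1 too. The log2 fold changes of the 4 with total counts were -0.31 to -0.10. With total counts the split over all genes went from 9355 higher and 6139 lower to 6387 and 606, and their median from 0.02 to 0.37.

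In HEK UL1 KO, 8 of the 10 were lower in NO than in CN, all but NXT1 (-0.39) and THOC6 (-0.40), beside 76.3% of 34468 genes that passed and 35.6% that were lower. ALYREF had the most negative log2 fold change (-1.03, standard error 0.15, adjusted p = 1.68e-04, edgeR). With the 6 HEK UL1 KO libraries scaled together, it was at 4.17, 3.85 and 4.55 CPM in CN and 1.93, 2.27 and 1.99 CPM in NO, without overlap. ZC3H11A (-0.95), THOC2 (-0.91), DDX39A (-0.87) and THOC5 (-0.85) followed, then DDX39B (-0.69), NXF1 (-0.66) and THOC1 (-0.60). THOC1 lost its call without HEK UL1 KO NO replicate 1 (adjusted p = 0.0608), without HEK UL1 KO CN replicate 2 (adjusted p = 0.0549) and with TMM computed without rRNA genes (-0.49, adjusted p = 0.0735). With total counts 0 of the 10 passed and NXF1, DDX39B and THOC1 were above 0, while the median of all genes moved from 0.03 to 0.79 and the split from 14023 higher and 12264 lower to 18471 and 825. The comparisons within HEK WT and HEK UL1 KO use the same libraries as the comparisons between genotypes.

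Of the other genes of the export route, 60 in 8 lists were looked up, and 58 passed the count filter in CN. Of these 27 were lower in HEK UL1 KO, 4 were higher and 27 did not pass (edgeR, adjusted over all genes), with a median log2 fold change of -0.21 beside 0.04 over all genes, of which 22.3% were lower and 15.6% higher. With total counts 5 were lower and 5 higher. In NO, 1 of 60 passed, beside 0.939% of all genes (17 at an unadjusted p under 0.05 and 5 by DESeq2).

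Among the remaining TREX subunits and adaptors, 3 of 6 were lower in CN and 0 higher, beside 22.3% lower over all genes, and 1 was lower with total counts. THOC3, another WD-repeat subunit of THO, was at 7.18, 7.19 and 7.35 CPM in HEK WT and 4.43, 4.90 and 4.68 CPM in HEK UL1 KO (log2 fold change -0.63, adjusted p = 1.57e-04, edgeR). THOC7, the partner of THOC5 in the complex, was at 9.21, 9.62 and 9.61 CPM against 6.09, 6.13 and 6.20 CPM (-0.63, adjusted p = 8.47e-05). Neither gene overlapped between the genotypes. FYTTD1 (UIF), an adaptor that can stand in for ALYREF, was at 7.22, 6.21 and 6.4 CPM against 4.04, 3.998 and 3.39 CPM (-0.79, adjusted p = 1.72e-04). Of the 6 THO subunits measured in all, THOC2, THOC3, THOC5 and THOC7 were therefore lower in CN with TMM, and THOC1 and THOC6 did not pass. With total counts THOC5 did not pass (-0.34, adjusted p = 0.111, edgeR), and of the remaining TREX subunits and adaptors only 1 did.

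Among the paralogs of the receptor, 2 of 4 were higher in CN and 0 lower, beside 15.6% higher over all genes, and the count was the same with total counts. NXF2, a testis-enriched relative of NXF1, was at 1.01, 0.862 and 0.354 CPM in HEK WT and 1.64, 1.37 and 1.81 CPM in HEK UL1 KO (log2 fold change 1.10, adjusted p = 0.0136, edgeR). NXF2B, a near-identical copy of NXF2 with 84, 72 and 29 raw counts in HEK WT CN where NXF2 had 85, 72 and 28, was at 1.09 (adjusted p = 0.0127), so the pair is a single measurement. NXF3 and LUZP4 did not pass the count filter in CN. The summed markers of other cell types were higher in HEK UL1 KO CN as well (0.269 to 0.998 CPM of total counts in HEK WT against 1.24 to 1.56), and a link with NXF2 was not tested.

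Of the NXF1 adaptors of the SR and RBM15 kind, 5 of 6 were lower in CN and 0 higher, beside 22.3% lower over all genes, and with total counts 0 of 6 passed. RBM15, which links the m6A methylation machinery to RNA and binds NXF1, was at 10.6, 10.5 and 11.98 CPM in HEK WT CN and 6.70, 7.77 and 6.84 CPM in HEK UL1 KO CN (log2 fold change -0.63, adjusted p = 3.12e-04, edgeR). The splicing factor SRSF7 was at -0.49 (adjusted p = 2.97e-04), SRSF1 at -0.40 (adjusted p = 0.00184) and the cleavage factor CPSF6 at -0.26 (adjusted p = 0.0212). Of the pore and release genes, 8 of 11 were lower in CN and 0 higher, beside the same 22.3%, and with total counts 1 was lower. TPR, the filament protein of the nuclear basket, was at 114, 116 and 114 CPM against 62.6, 61.6 and 60.3 CPM (-0.90, adjusted p = 9.50e-06), NUP42 at -0.54 (adjusted p = 4.76e-04), NUP153 at -0.35 (adjusted p = 0.00311) and NUP88 at -0.34 (adjusted p = 0.00645).

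**Figure D4:**
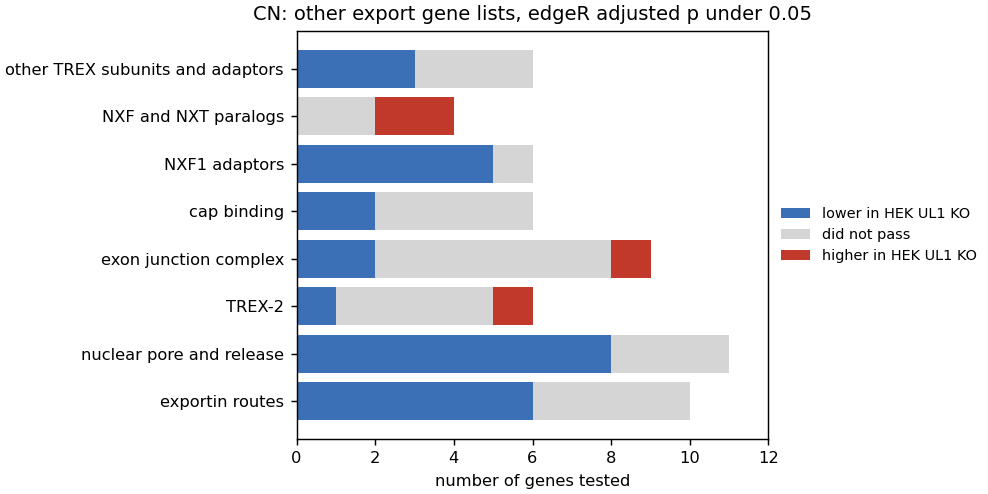
Number of genes tested in CN in each of 8 lists of other export genes, split into those lower in HEK UL1 KO (blue), not past the test (grey) and higher (red) at an adjusted p under 0.05 by edgeR's quasi-likelihood test. The lists of pore and release genes (8 of 11 lower) and NXF1 adaptors (5 of 6 lower) hold mostly lower genes. The receptor paralogs hold 2 higher genes of 4, NXF2 and NXF2B, which are a single measurement.

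The profile of NXF1 over the 12 libraries was compared with that of 15251 genes whose mean count was 50 or more in each table, as the root mean squared difference of log2 CPM after centring each gene on its own mean. Among the 5 nearest genes were UPF1 (0.102), AP2A2 (0.104), SLC5A6 (0.115) and UQCRC1 (0.116), where the median over all genes was 0.393. The libraries share their depth and composition, so such nearness is a description. Among the other export factors DDX39A (0.175) and DDX39B (0.188) were nearest to NXF1, with 1.48% and 2.31% of genes nearer, then ALYREF (0.22), THOC5 (0.255), ZC3H11A (0.324) and THOC1 (0.372). THOC2 was farthest at 0.506, with 72% of genes nearer to NXF1. NXT1 and THOC6 were below the count minimum.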

How the data were processed

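RNA of both genotypes and both fractions (3 libraries each) was sequenced without rRNA depletion. Per the labels and the paper's methods, the authors trimmed reads of 75 bases with Cutadapt 3.7, aligned them to GRCh38 with STAR 2.7.8, allowing up to 20 alignments per read, and assigned reads to genes with featureCounts. The files the authors deposited hold these raw counts, 1 table per fraction, without normalization. The counting options, strand setting and annotation version are not given in the sources used here. All 12 columns were matched to samples by their labels, and 0 were left unmatched.

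Counts were tested over whole tables with edgeR 4.0.16 in R 4.3.3 (quasi-likelihood F test, filterByExpr with a minimum count of 10 and minimum total of 15, TMM) with Benjamini-Hochberg adjustment and a threshold of 0.05. CPM are scaled by TMM within a table; marker levels are CPM of total counts. Standard errors were taken from the F statistic, and intervals are the estimate with a normal 95% range. Libraries of the same number did not deviate together (correlations of deviations from group means between -0.48 and -0.0368), so the replicate number was not used as a block in the main fits. Such correlations cannot exclude that libraries of the same number came from the same culture. Alternatives were DESeq2 1.42.0, the tool named in the study, total counts, TMM without rRNA genes, 1 reference gene, other count filters, all libraries in 1 fit, an unadjusted p, copies summed, a replicate block and each library left out. The procedure was tested on simulated counts.

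The 10 factors and the other gene lists were chosen with earlier results of these data known. All 10 factors are named in every comparison; of each other list, the 2 most positive and 2 most negative log2 fold changes among genes past the threshold; and the 5 genes nearest to NXF1, of which 1 is not reported here. Exon lengths, overlaps and transcripts came from GENCODE release 44 and promoters from RefSeq (GRCh38.p14), where all 10 factors matched by symbol. Protein sequences were not used here. Figures were drawn with matplotlib 3.10.9 in Python 3.11.15.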

Additional observations from a re-analysis of the deposited data

How the results depend on the processing

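Against HEK WT in CN, THOC2, THOC5 and ZC3H11A stayed below 0 under every alternative run, with log2 fold changes of -1.28 to -0.72, -0.90 to -0.34 and -0.75 to -0.19; 3 factors were called whichever library was left out, 1 with total counts and 5 with GAPDH as reference. Of the other export genes 31 were called in CN, 10 with total counts, 9 in the fit of all 12 libraries and 25 to 31 with a library left out. In NO, where 0 factors were called, 4 passed at an unadjusted p, 1 by DESeq2, 2 in the fit of all 12 libraries and 0 to 5 with a library left out. The other export genes called in NO numbered 1, against 17 at an unadjusted p, 5 by DESeq2, 0 with total counts, 3 without a count filter, 0 with at least 10 counts in every library, 5 (all higher) with SNORD3A as reference, 6 in the fit of all 12 libraries and 0 to 34 with a library left out. For NO against CN, total counts gave 0 factors in either genotype; in HEK WT (4 called), TMM without rRNA genes gave 0, at least 10 counts in every library gave 1 and leaving out a library 0 to 4, and in HEK UL1 KO (8 called) the stricter filter gave 5 and leaving out a library 7 to 8, with THOC1 lost also by TMM without rRNA genes. The interaction stayed at 0 under all alternatives. Values that crossed 0 were in NO, with total counts, NXF1 0.08, NXT1 0.10 and DDX39B 0.23; with SNORD3A, NXF1 0.427, NXT1 0.465, ALYREF 0.272, DDX39B 0.533, DDX39A 0.106, THOC5 0.034, THOC6 0.129 and ZC3H11A 0.199; and THOC1, which was -0.024 by DESeq2, -0.014 without a filter and -0.251 to 0.279 with a library left out. In CN they were, with total counts, NXF1 0.081, ALYREF 0.122, DDX39A 0.20 and THOC6 0.145; with the stricter filter, DDX39A 0.05 and THOC6 0.017; with GAPDH, DDX39B -0.25 and THOC1 -0.302; THOC1 by DESeq2 (-0.015) and in the fit of all 12 libraries (-0.034); and, with a library left out, NXF1 (-0.255 to 0.057), ALYREF (-0.188 to 0.076), DDX39A (-0.116 to 0.177) and THOC6 (-0.463 to 0.313). For NO against CN with total counts they were NXF1 0.085, NXT1 0.191, DDX39B 0.133 and DDX39A 0.282 in HEK WT, and NXF1 0.079, NXT1 0.373, DDX39B 0.049, THOC1 0.161 and THOC6 0.361 in HEK UL1 KO; in HEK WT also DDX39A without rRNA genes (0.035) and, with a library left out, DDX39B (-0.405 to 0.044) and DDX39A (-0.331 to 0.12). None of these values that crossed 0 passed the test on either side, except NXF1, DDX39B and THOC1 in HEK UL1 KO, which were called before they crossed; the shift of the median of all genes under each scaling is given with the results, and other causes were not tested. Libraries of the same number did not deviate together, which does not exclude that the numbers pair them. With the replicate number as a block, 3 factors were called in CN, 0 in NO, 0 (from 4) in NO against CN of HEK WT and 8 in HEK UL1 KO. The other export genes called in NO went to 0, and THOC1 in NO to -0.021. Summing the suffixed rows of DDX39B into it changed no count of called factors. THOC6 and NXT1, with 11 to 70 counts in a library, are limited by depth.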

Other observations

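Exportin routes, which carry proteins and small RNAs rather than bulk mRNA, were lower in HEK UL1 KO CN for 6 of 10 genes and higher for 0 (edgeR, adjusted p under 0.05), beside 22.3% lower over all genes, and for 2 with total counts. RCC1, the exchange factor that loads RAN with GTP on chromatin, was at 16.8, 16.7 and 19.2 CPM in HEK WT CN and at 7.84, 8.20 and 7.78 CPM in HEK UL1 KO CN, a log2 fold change of -1.15 (adjusted p = 3.71e-06). NMD3, the adaptor for export of the large ribosomal subunit, was at 13.1, 12.9 and 13.3 CPM against 6.51, 6.44 and 5.81 CPM (-1.07, adjusted p = 4.27e-06). RAN was at -0.28 (adjusted p = 0.00790) and RANGAP1, its GTPase activator, at -0.31 (adjusted p = 0.0418). In NO, RCC1 was the 1 gene of the 60 that passed, from 204, 128 and 235 CPM in HEK WT to 68.8, 46.8 and 33.5 CPM in HEK UL1 KO (-1.93, adjusted p = 0.0349), a call that was lost with total counts, with SNORD3A as reference, where each library had to hold 10 counts or more, and without HEK WT NO replicate 1, HEK UL1 KO NO replicate 2 or HEK UL1 KO NO replicate 3. In the annotation RCC1 overlaps SNHG3, the host gene of a pair of snoRNAs, so reads of the one may have been counted for the other.

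Of the cap-binding genes, 2 of 6 were lower in HEK UL1 KO CN and 0 higher, beside 22.3% lower and 15.6% higher over all genes, and 0 passed with total counts. NCBP1, the large subunit of the nuclear cap-binding complex, was at 18.5, 17.6 and 18.1 CPM in HEK WT and 12.3, 12.9 and 11.4 CPM in HEK UL1 KO (log2 fold change -0.56, adjusted p = 1.72e-04, edgeR), and NCBP2, its cap-contacting partner, was at -0.38 (adjusted p = 0.0109). In the exon junction complex list 2 of 9 were lower and 1 higher, near the same shares over all genes, against 0 lower and 2 higher with total counts. These were ACIN1 (-0.30, adjusted p = 0.0157), RNPS1 (-0.29, adjusted p = 0.0306) and SAP18 (0.49, adjusted p = 0.00241), which bind each other in the ASAP complex. In the TREX-2 list 1 of 6 was lower and 1 higher, beside the same shares, and the counts were the same with total counts. CETN2, a centrin also found at centrioles, was at 3.37, 3.14 and 3.78 CPM against 1.66, 1.85 and 1.72 CPM (-0.97, adjusted p = 1.27e-04), and PCID2 was higher (0.42, adjusted p = 0.00199). Of the proteins related to hnRNP UL1, HNRNPU was lower in CN (-0.48, adjusted p = 7.47e-04) and HNRNPUL2 did not pass (0.07).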
